A study of Mus musculus with 48 samples.

Results

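Gene expression was compared between the cerebral cortex of *Chd8* V986*/+ embryos (HET) and of wild-type (WT) embryos at embryonic day 14.5 (E14.5), across all genes of the deposited table. The comparison takes 12 of the 48 samples of the series, 6 WT and 6 HET, chosen by genotype and age as the labels give them. All 12 were C57BL/6J, and the study's methods describe male mice, littermate controls and 1 cortical hemisphere taken per animal. HET animals carried 1 copy of an allele made by CRISPR/Cas9 that places tandem stop codons at V986 and E987, and the line descends from a single male founder that was bred back to C57BL/6J. The comparison asks which genes differ in the embryonic cortex when 1 copy of *Chd8* is disrupted. The labels name no treatment. The labels do not say which same-numbered samples, if any, were littermates.

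CHD8 is a chromatin remodeler that uses ATP to move nucleosomes, binds near the promoters of active genes and is known as a negative regulator of beta-catenin signalling. Heterozygous loss-of-function mutations of the human gene are among those most strongly tied to autism. At mid-gestation, the mouse cortex holds dividing radial glia and intermediate progenitors beneath the first layers of neurons.

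The reference sequence around both mutated codons is shown because it marks where the open reading frame ends in the mutant allele. It is the mm9 reference, chr14:52837902-52837991, minus strand, read 5′ to 3′ along the coding strand, with the codons of V986 and E987 in capitals. The stretch lies in exon 14 of 37 of *Chd8* (ENSMUSG00000053754.7), in a transcript that encodes 2582 amino acids, and spans 42 bases on each side of the codons.
Chd8 V986 and E987: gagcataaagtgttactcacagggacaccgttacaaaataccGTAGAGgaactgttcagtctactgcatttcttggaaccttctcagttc
Reads over these codons were not analysed here, so the values of *Chd8* below are totals over both alleles.

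Expression is given as variance-stabilizing transformation (VST) values, which are on a log2 scale, so 1 unit is about a 2-fold change where expression is high and less than the true change where it is low. A value of 2.1433, the most frequent in the table, was taken as the floor, the level of a gene without reads. The files hold values and no reads per gene, so how many reads stand behind a gene's value is not known, and precision is given by the spread between the 6 samples of a genotype. The study lists a total read depth for each library, which served as a covariate in 1 alternative. Genes with a mean at least 0.5 above the floor were tested with limma, and genes whose *p* value adjusted by the Benjamini-Hochberg method (adjp) was below 0.1 were taken as differentially expressed. Each sample stands for 1 animal, so the spread given is that between animals and library preparations together.

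Markers of the labelled tissue were present in every library. *Tbr1*, a transcription factor of deep-layer cortical neurons, had VST values of 12.02 to 13.14. *Emx1*, a transcription factor of cortical progenitors, lay between 8.95 and 9.99. Several libraries stood apart from the rest. WT 5 had the highest mean of midbrain and hindbrain genes (8.24) and of *Hox* genes (5.38, against at most 3.23 in the other 11 libraries), and WT 2 and WT 3 followed for midbrain and hindbrain genes (7.64 and 7.53). WT 6 had the lowest midbrain and hindbrain mean (5.01) and the highest mean of DNA replication genes (10.28). HET 2 had a mean of meningeal and fibroblast genes of 8.01, against at least 8.80 in the other 11. In both libraries numbered 1, genes with the longest 25% of transcripts lay low, with a median deviation from the gene means of −0.152 in WT 1 and −0.215 in HET 1, and the other 10 libraries lay between −0.007 and 0.074. *Xist*, the RNA that silences an X chromosome in female cells, was 8.65 in HET 3 and 2.83 to 3.83 in the other 11 libraries, whereas the Y-linked genes *Ddx3y*, *Eif2s3y*, *Kdm5d* and *Uty* were expressed in all 12, with HET 3 inside the range of the others for each. For many of the results that WT 2, 3 and 5 move, the value without these 3 libraries is given beside the result. They were chosen after seeing the data, so such values are a description.

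*Chd8* was the one gene that passed the threshold. Its VST expression was 12.33 at the lowest, 12.60 at the median and 12.66 at the highest in WT, and 11.60, 11.98 and 12.03 in HET. All 6 HET samples lay below all 6 WT samples, with the lowest value of each genotype in its library 1. *Chd8* expression fell by 0.63 on the log2 scale (standard error 0.08, 95% interval −0.801 to −0.458, limma adjp = 0.026) to 64.6% of WT. The exact two-sided permutation test gave *p* = 0.0022, the smallest that 6 against 6 samples allow. Without both libraries numbered 1 the difference was −0.61 (limma adjp = 0.00023), and without HET 3, the library with *Xist*, it was −0.65 (limma adjp = 0.065). Within replicates 1 to 3 it was −0.61 and within replicates 4 to 6 it was −0.65. The size of the difference moved little over all alternatives tried, but the call was lost without WT 2 (−0.61, limma adjp = 0.12), WT 4 (−0.62, limma adjp = 0.13), WT 5 (−0.61, limma adjp = 0.12) or HET 4 (−0.63, limma adjp = 0.13). It was also lost without an intensity trend (−0.63, limma adjp = 0.12), with the mean of midbrain, hindbrain and *Hox* genes as a covariate (−0.59, limma adjp = 0.29) and without WT 2, 3 and 5 (−0.60, limma adjp = 1.0).

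The call of *Chd8* was 1 of 16877 genes tested, or 0.00593%. An unadjusted *p* below 0.05 was reached by 769 genes (4.56% of those tested), 373 with a higher mean in HET (2.21%) and 396 with a lower mean (2.35%). Over all tested genes the median difference was 0.001, and 8513 genes (50.4%) had a higher and 8364 (49.6%) a lower mean in HET. One limma fit of all 48 samples, which pools the spread of the 4 ages, called 120 genes (0.711%), of which 23 were free of overlap between genotypes and 10 were midbrain and hindbrain, *Hox*, monoaminergic or motor and sensory neuron genes. The median standard error was 0.091 in that fit against 0.102 for E14.5 alone, over all genes. Over the 120 called genes it was 0.096 against 0.135. The calls counted here are those of E14.5 alone. The plot of difference against *p* shows *Chd8* apart from all other genes.

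**Figure D1:**
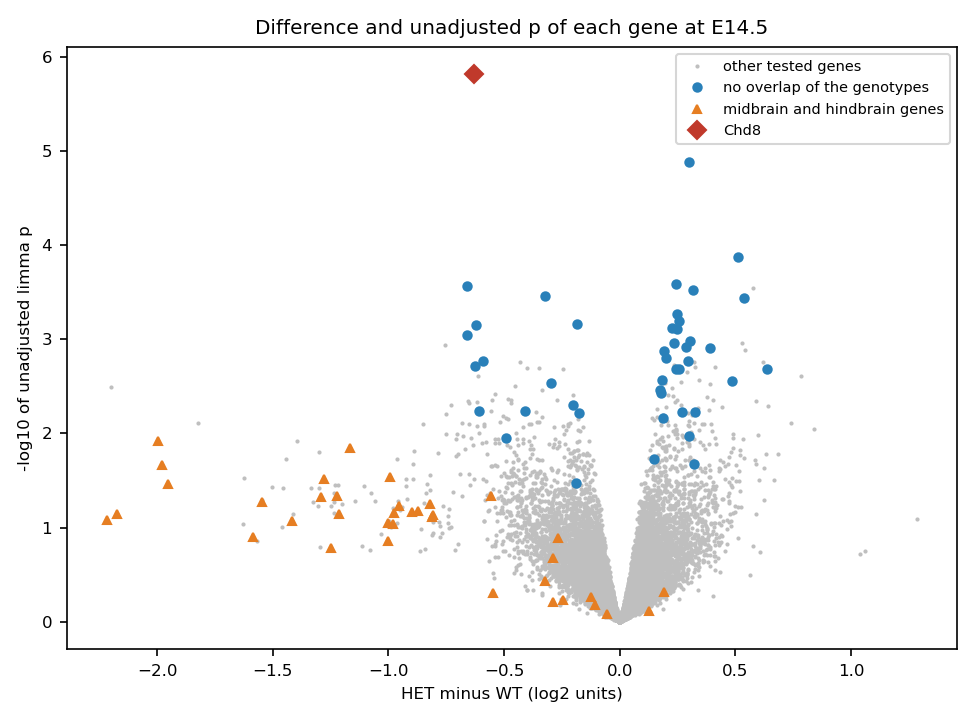
Difference of HET minus WT at E14.5 (x axis, log2 units) against the negative log10 of the unadjusted limma *p* (y axis) for the 16877 tested genes. The red diamond is *Chd8* at −0.63, blue points are the other genes whose genotypes do not overlap, and orange triangles are midbrain and hindbrain genes, which reach −2.22 with *p* values far above that of *Chd8*.

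The other 9 genes listed as CHD remodelers, which are helicases of the family of *Chd8* and the related *Chd1l*, did not pass the test. Of the 10 members, 2 had a higher and 8 a lower mean in HET, with a median difference of −0.061. Next to *Chd8* came *Chd1l*, a remodeler recruited to damaged DNA, with 7.17, 7.65 and 8.0 in WT and 7.73, 7.86 and 7.98 in HET (lowest, median and highest), a difference of 0.23 with limma adjp = 0.98 that was 0.06 without WT 2, 3 and 5. *Chd6* had 11.75, 12.11 and 12.21 in WT and 11.51, 12.04 and 12.13 in HET, a difference of −0.10 (limma adjp = 0.98) that was −0.06 without them. The genotypes overlapped for both genes, and library 1 of each genotype held the lowest *Chd6* value. The 7 tested genes around *Chd8* on chromosome 14 had a median difference of 0.017, from −0.117 to 0.063, and none reached an unadjusted *p* below 0.05.

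The second smallest *p* was that of *Tmem209*, which encodes a membrane protein of the nuclear envelope. Its values were 10.17, 10.23 and 10.32 in WT and 10.44, 10.54 and 10.63 in HET (lowest, median and highest), so that every HET sample lay above every WT sample. The difference was 0.30 (standard error 0.046, limma adjp = 0.11), just outside the threshold. It was 0.30 both within replicates 1 to 3 and within replicates 4 to 6. Limma called it with quantile normalization between libraries (adjp = 0.049) and with the set of replicates as a covariate (adjp = 0.036), and did not call it without an intensity trend (adjp = 0.39). It was also called with array quality weights (limma adjp = 0.0067) and in a fit of all 48 samples (limma adjp = 0.00072). The call was absent with the mean of midbrain, hindbrain and *Hox* genes as a covariate (0.30, limma adjp = 0.49) and without WT 2, 3 and 5 (0.29).

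The genotypes did not overlap for 44 of the tested genes (0.261%), in 29 with HET above WT (0.172%) and in 15 with HET below WT (0.0889%). Besides *Chd8* none of the 44 was called, and the differences ranged from −0.66 to 0.64. The genes below are the 10 in each direction with the smallest unadjusted *p*, and they were chosen on these samples, so their values are a description.

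The 10 genes with HET above WT have known functions that range from chromatin reading to mitochondrial translation. *Zcwpw1*, a reader of histone methylation that acts in meiosis, had 6.93, 7.24 and 7.49 in WT and 7.55, 7.73 and 7.99 in HET, a difference of 0.51 (standard error 0.098). *Crlf2*, a subunit of the receptor for thymic stromal lymphopoietin, had 6.58, 6.76 and 6.94 in WT and 7.0, 7.26 and 7.66 in HET, a difference of 0.54 (standard error 0.116). *Wars2*, the mitochondrial tryptophanyl-tRNA synthetase, had 7.84, 8.08 and 8.22 in WT and 8.30, 8.35 and 8.38 in HET, a difference of 0.31 (standard error 0.074). For *Wars2* the HET samples lay within a narrow band just above the highest WT sample, WT 6, whereas WT 3 and WT 5 were the lowest.

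*Mlh3*, a mismatch repair protein that also acts in meiotic crossing over, differed by 0.24. *Ercc1*, a subunit of a nuclease of nucleotide excision repair, differed by 0.25. *Oard1*, which removes ADP-ribose from proteins, differed by 0.32. For these and for *Pan2*, a deadenylase that shortens poly(A) tails (0.25), *Fpgt*, an enzyme of fucose salvage (0.26), and *Mettl4*, an adenine methyltransferase (0.22), the lowest HET sample exceeded the highest WT sample by less than 0.1. None of the 10 was called by limma. *Wars2* differed by 0.19 and *Pan2* by 0.15 without WT 2, 3 and 5.

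Among the genes with HET below WT, *Scn2b*, the beta-2 subunit of voltage-gated sodium channels, had 8.02, 8.22 and 8.38 in WT and 7.81, 7.87 and 8.0 in HET, a difference of −0.32 (standard error 0.070). *Sfxn1*, a mitochondrial serine transporter, had 10.85, 10.89 and 10.92 in WT and 10.64, 10.67 and 10.79 in HET, a difference of −0.18 (standard error 0.043). *Penk*, the precursor of enkephalin peptides, had 7.08, 7.32 and 8.09 in WT and 6.65, 6.83 and 7.07 in HET, a difference of −0.62 (standard error 0.144). The highest *Scn2b* and *Penk* values were those of WT 5, and without WT 2, 3 and 5 the differences were −0.26 and −0.40.

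*Atp8b3*, a phospholipid flippase, had 4.32, 4.74 and 5.10 in WT and 3.89, 4.07 and 4.19 in HET, a difference of −0.66 (standard error 0.138). *Chst9*, a sulfotransferase for N-acetylgalactosamine, *Dmgdh*, an enzyme of choline breakdown, and *Dnah7a*, a dynein heavy chain of cilia, differed by −0.66, −0.59 and −0.63, from WT medians of 3.74, 3.64 and 3.98. These 4 genes lie near the floor of 2.1433, where the counting error of a single library is largest and is not known from these values. *Dhdh*, a dehydrogenase of dihydrodiols, differed by −0.29 and *Itfg2*, a subunit of the KICSTOR complex that regulates mTORC1, by −0.20.

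**Figure D2:**
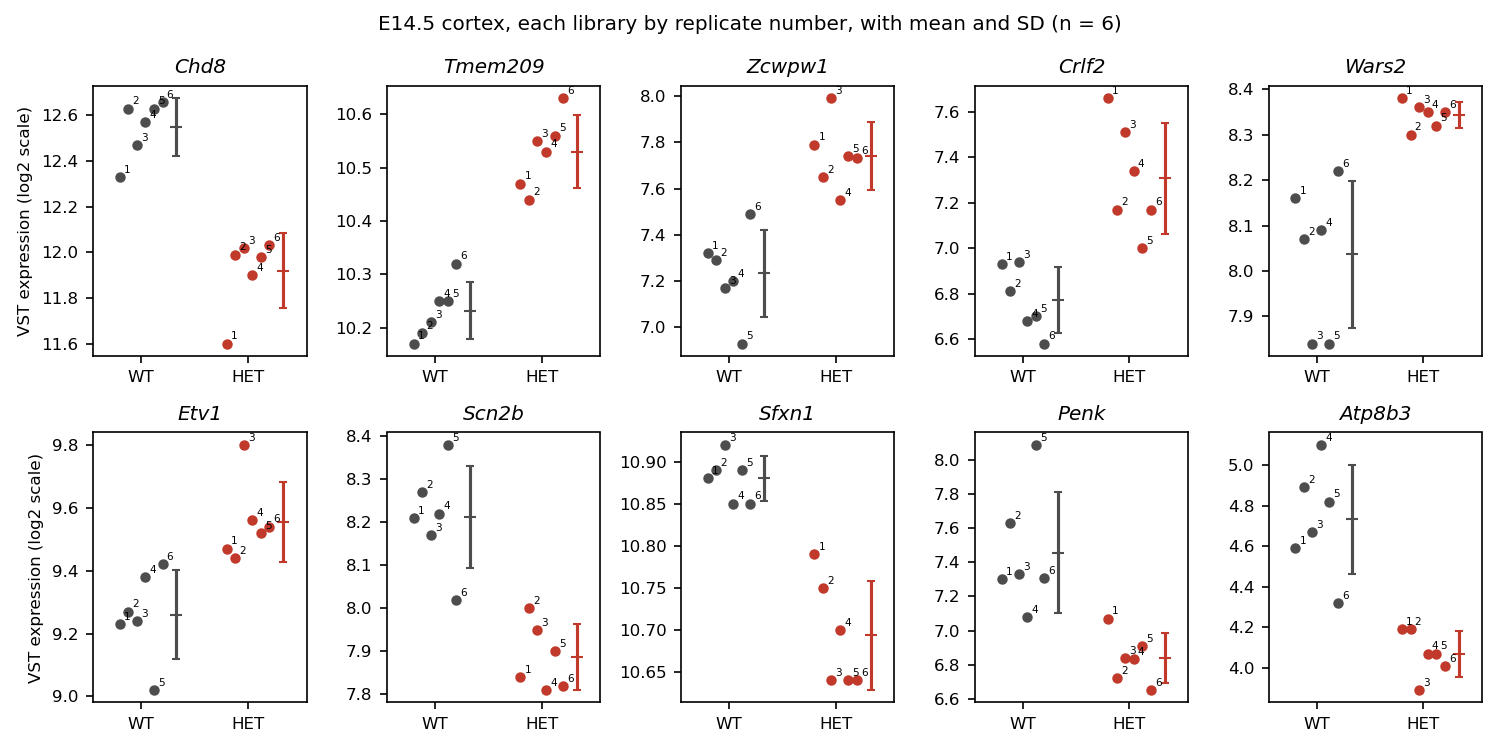
VST expression (y axis, log2 scale, a different range for each gene) of *Chd8* and 9 other genes in each WT (grey) and HET (red) library at E14.5, with replicate numbers beside the points and the mean with SD (n = 6) at the right of each group. In all 10 genes the HET and WT libraries do not overlap, and the gap is widest relative to the spread for *Chd8* and *Tmem209*.

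The animals taken at 1, 6 and 12 months took no part in choosing these 44 genes, and they give the same measure in other samples. All 4 genotype differences of *Chd8* had the same sign, with −0.67, −0.64 and −0.54 after birth. Of the 43 other genes, 30 had their E14.5 sign at 1 month (69.8%), 35 at 6 months (81.4%) and 32 at 12 months (74.4%). Over all 16877 genes the same shares were 57.4%, 55.4% and 49.4%. The sign held at all 3 postnatal ages in 24 of the 43 genes (55.8%), against 2928 of all tested genes (17.3%).

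Of the 29 genes with HET above WT, 18 kept their sign at all 3 postnatal ages (62.1%), among them *Tmem209* (0.15, 0.26 and 0.26), *Zcwpw1* (0.26, 0.13 and 0.30), *Oard1* (0.30, 0.15 and 0.32), *Crlf2* (0.46, 0.43 and 0.26), *Pan2* (0.21, 0.13 and 0.34) and *Wars2* (0.36, 0.37 and 0.33). Of the 15 with HET below WT, *Chd8* included, 7 did (46.7%), and the difference between these 2 shares was not tested. *Dnah7a* (−0.28, −0.52 and −0.38), *Itfg2* (−0.21, −0.20 and −0.19) and *Scn2b* (−0.09, −0.14 and −0.15) were lower at each age. *Penk* (0.24, 0.02 and −0.37), *Chst9* (0.13, 0.41 and 0.08) and *Dmgdh* (0.03, 0.10 and 0.05) were not.

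**Figure D3:**
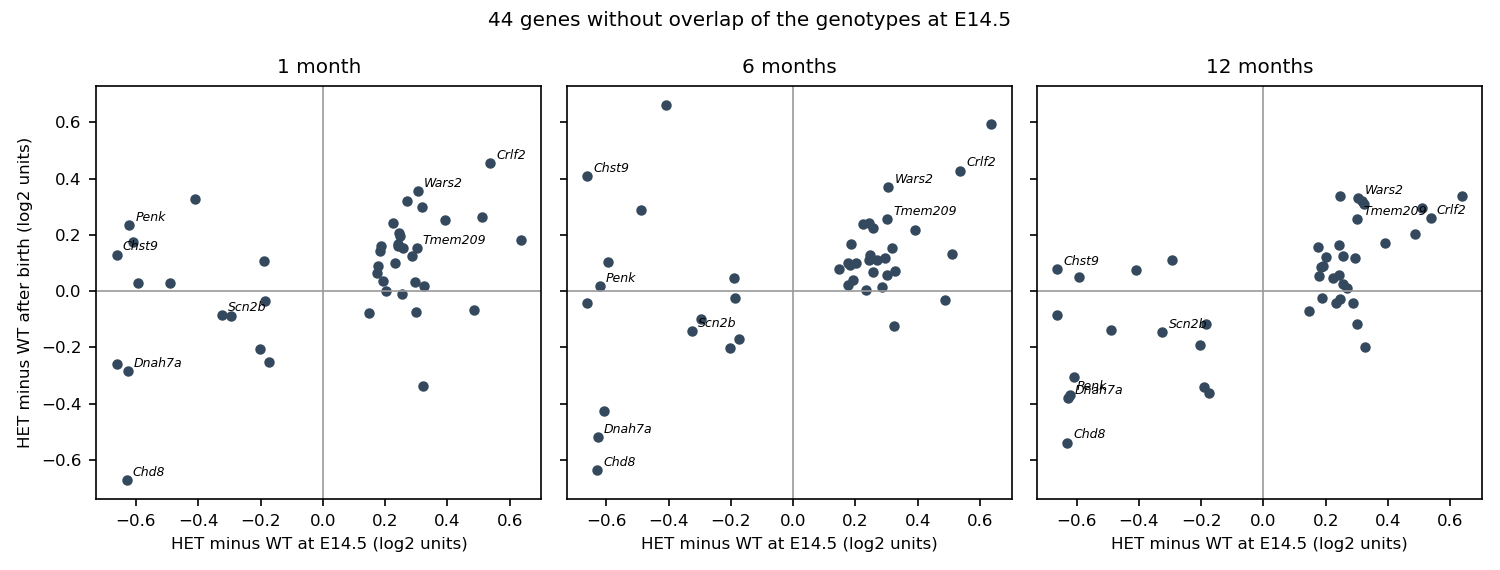
Difference of HET minus WT at 1, 6 and 12 months (y axis, log2 units) against that at E14.5 (x axis, log2 units) for the 44 genes whose genotypes do not overlap at E14.5, with 8 of them named. Points in the upper right and lower left keep their sign, which 31, 36 and 33 of the 44 do at the 3 ages.

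No gene had a genotype difference at E14.5 that was distinguishable from the mean difference after birth. In a limma fit of all 48 samples, 0 of 17311 genes (0.0%) passed the threshold for this contrast, and 1137 (6.57%) had an unadjusted *p* below 0.05. For *Chd8* the contrast was −0.013. This count depended on the fit, with 20 genes when the replicate number was a block and 303 with array quality weights.

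The study itself named 13 genes besides *Chd8* for differing at most ages. It chose them on these samples, so they are no independent evidence of direction. At E14.5, 9 of the 13 had a higher and 4 a lower mean in HET, and 7 higher and 2 lower genes had an unadjusted *p* below 0.05. Their median difference was 0.16. *BC025920* had 6.81, 6.99 and 7.42 in WT and 7.38, 7.69 and 7.84 in HET (0.58, standard error 0.121), with 5 of 6 HET samples above all WT samples. *Csad*, an enzyme of taurine synthesis, had 7.69, 7.89 and 8.13 in WT and 8.11, 8.21 and 8.34 in HET (0.32, standard error 0.084), with 4 of 6 above all WT samples.

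*Usp11*, an X-linked deubiquitinase, differed by −0.17 and *Asl*, argininosuccinate lyase of the urea cycle, by −0.23, with 4 and 5 of 6 HET samples below all WT samples. *Pum3*, an RNA-binding protein of the nucleolus, and *Lyrm7*, an assembly factor of respiratory complex III, differed by 0.16 and 0.27. The remaining 4 had an unadjusted *p* above 0.05. *BC025920* differed by 0.38 and *Usp11* by −0.10 without WT 2, 3 and 5. The 4 were *Egfl6*, a secreted protein with EGF repeats (0.15), *Parva*, an actin-binding protein of focal adhesions (0.09), *Zbtb45*, a zinc finger protein (−0.06), and *Ddo*, D-aspartate oxidase (−0.33).

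The lists of genes described next were counted against all tested genes, of which 50.4% had a higher mean in HET and 4.56% an unadjusted *p* below 0.05. With WT 2, 3 and 5 left out, 51.4% of all genes had a higher mean and 2.11% an unadjusted *p* below 0.05. The lists were not tested as sets. In bulk tissue, fewer cells of a type and less RNA per cell cannot be told apart.

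The largest differences in size lay in genes of other brain regions. Of 37 midbrain and hindbrain genes, 35 had a lower mean in HET, the median difference was −0.98, and 9 had an unadjusted *p* below 0.05, all lower. The mean over these genes was 5.01, 7.25 and 8.24 in WT (lowest, median and highest library) and 5.18, 5.91 and 6.93 in HET. The groups overlapped, with WT 6 below all 6 HET libraries and the WT libraries 2, 3, 4 and 5 above all of them. Without WT 5 the median difference was −0.70, without WT 6 it was −1.36, and without WT 2, 3 and 5 it was −0.07 with 15 of 37 genes higher and none at an unadjusted *p* below 0.05. WT 2, 3 and 5 were the highest libraries for this list, so leaving them out had to shrink the difference. That value therefore cannot decide what the difference rests on.

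*Pax5*, a transcription factor of the midbrain-hindbrain boundary, had 3.39, 6.31 and 7.23 in WT and 3.01, 3.30 and 6.03 in HET, a difference of −2.0 (standard error 0.693). *Evx2*, a homeobox gene of the hindbrain and spinal cord, had 2.79, 6.02 and 7.13 in WT and 2.22, 3.06 and 5.83 in HET. *Phox2a*, a factor of noradrenergic and cranial motor neurons, had 2.75, 3.49 and 5.52 in WT and 2.11, 2.47 and 3.64 in HET. The HET mean of *Phox2a*, 2.61, was below the level of the filter, so it was tested because of its WT values. Of the 6 HET libraries, 4 lay below all WT libraries for *Pax5*, 4 for *Phox2a* and 2 for *Evx2*. HET 3 was the highest HET library for each of these genes, and limma adjp was 0.98 for all of them. The differences of *Pax5*, *Evx2* and *Phox2a* were −0.68, −0.51 and −0.43 without WT 2, 3 and 5.

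Of 30 *Hox* genes, which are expressed in the hindbrain and spinal cord, 11 passed the filter on low values, and 9 of those had a lower mean in HET. Only 5 of the 11 would have passed it without WT 5, so most were tested because they were high in that library and their count carries no weight. *Hoxb3* was 8.41 in WT 5 and at most 3.82 in the other 5 WT libraries. *Hoxb2* was 6.33 in WT 5 and at most 3.57 in the other WT libraries, and *Hoxa2* had 2.17, 3.27 and 6.18 in WT and 2.12, 2.17 and 2.72 in HET. The median of the 11 genes was −0.70, and −0.26 without WT 5. *Hoxb3*, *Hoxb2* and *Hoxa2* differed by −0.14, −0.28 and −0.016 without WT 2, 3 and 5.

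Of 13 monoaminergic neuron genes, 11 had a lower mean in HET, with a median difference of −0.51 that was 0.06 without WT 2, 3 and 5. *Slc6a4*, the serotonin transporter, had 3.42, 5.88 and 7.19 in WT and 3.26, 3.69 and 4.84 in HET, a difference of −1.83 (standard error 0.588) that was −0.44 without those libraries. *Tph2*, the serotonin-synthesizing enzyme of neurons, had 3.64, 5.39 and 6.48 in WT and 3.72, 3.95 and 4.88 in HET, a difference of −1.07 that became 0.06 without WT 2, 3 and 5.

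Of 21 tested motor and sensory neuron genes, 20 had a lower mean, with a median difference of −0.43, and 0.06 without WT 2, 3 and 5. *Prph*, an intermediate filament of peripheral neurons, had 4.94, 6.32 and 9.81 in WT and 4.73, 5.26 and 6.17 in HET, and its difference without WT 2, 3 and 5 was −0.015. Genes of the thalamus and hypothalamus gave another pattern, with 16 of 26 higher in HET, a median difference of 0.06, and 0.37 without WT 2, 3 and 5. *Lhx9*, a transcription factor of the thalamus, differed by −0.49 and *Otx2*, of the choroid plexus and midbrain, by −0.50. Without those 3 libraries the differences were −0.17 and −0.24.

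**Figure D4:**
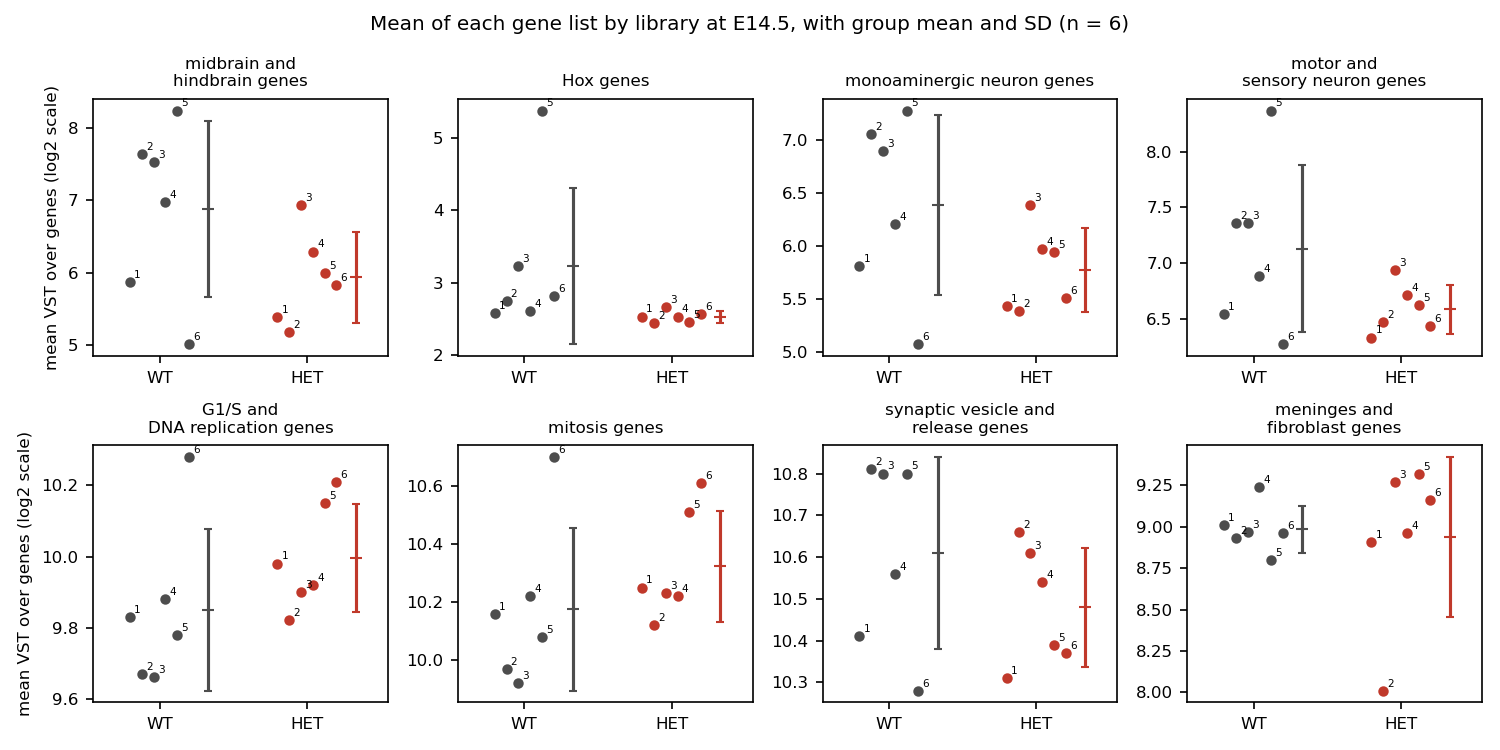
Mean VST expression over the tested genes of 8 gene lists (y axis, log2 scale, a different range for each list) in each WT (grey) and HET (red) library, with replicate numbers beside the points and the group mean with SD (n = 6). WT 2, 3 and 5 lie high for midbrain and hindbrain, monoaminergic, and motor and sensory neuron genes and low for dividing cells. For *Hox* genes WT 5 stands apart. WT 6 lies lowest for midbrain and hindbrain genes and highest for dividing cells.

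Genes of dividing cells lay on the other side. Of 52 genes of the G1/S transition and DNA replication, 50 had a higher mean in HET, with a median difference of 0.16, and 5 had an unadjusted *p* below 0.05, all higher. The mean over these genes was 9.66, 9.81 and 10.28 in WT and 9.82, 9.95 and 10.21 in HET, so the groups overlapped and the highest library was WT 6. *Orc1*, a subunit of the origin recognition complex, had 6.16, 6.30 and 6.86 in WT and 6.60, 6.67 and 6.87 in HET (0.28, standard error 0.122). *Mcm10*, which starts DNA replication at origins, differed by 0.27 and *Rfc2*, a subunit of the clamp loader, by 0.16.

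Of 47 tested mitosis genes, 46 had a higher mean in HET, with a median difference of 0.16, and none of the 46 reached an unadjusted *p* below 0.05. *Spc25* and *Ndc80*, subunits of the kinetochore, differed by 0.23 and 0.24. The exception was *Pttg1*, or securin, the inhibitor of separase, with 6.75, 7.0 and 7.15 in WT and 6.49, 6.70 and 6.92 in HET (−0.28, standard error 0.097).

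These counts moved with the same libraries as those of other brain regions. WT 2, 3 and 5 were the highest WT libraries for midbrain and hindbrain genes and the lowest for both lists of dividing cells. Leaving them out therefore had to shrink these differences, so it cannot decide what the counts rest on. Without WT 2, 3 and 5, the median difference was 0.005 for G1/S and replication genes, with 27 of 52 higher, and −0.03 for mitosis genes, with 15 of 47 higher. Without WT 6, the medians were 0.24 and 0.27. With the mean of midbrain, hindbrain and *Hox* genes as a covariate, they were 0.04 and 0.02. The midbrain and hindbrain mean itself was 6.88 in WT and 5.94 in HET. This fit therefore cannot decide what the counts rest on either. With WT 2, 3 and 5 left out, *Pttg1* differed by −0.34, *Orc1* by 0.14, *Mcm10* by 0.08, *Rfc2* by 0.07, *Spc25* by 0.035 and *Ndc80* by 0.031.

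Radial glia and intermediate progenitor genes had mostly higher means as well. Of 20 radial glia genes, 17 had a higher mean in HET, with a median difference of 0.08, and of 12 intermediate progenitor genes 9 did, with a median of 0.09. No member reached an unadjusted *p* below 0.05. Without WT 2, 3 and 5, the median was −0.014 for radial glia genes, with 8 of 20 higher, and −0.13 for intermediate progenitor genes, with 1 of 12 higher. *Emx1* had a difference of 0.27, which became −0.04 without WT 2, 3 and 5.

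In cortical neurons, deep-layer and subplate genes had a median difference of 0.005, with 9 of 17 higher, and 3 genes had an unadjusted *p* below 0.05, all higher. Without WT 2, 3 and 5 that median was 0.072, with 14 of 17 higher. *Etv1*, an ETS transcription factor of layer 5 neurons, was one of the 44 genes without overlap, with 9.02, 9.26 and 9.42 in WT and 9.44, 9.53 and 9.80 in HET (0.29, standard error 0.076). Its difference was 0.21 without WT 2, 3 and 5. *Tbr1* had 12.02, 12.56 and 13.14 in WT and 12.71, 12.90 and 13.13 in HET (0.36), and *Fezf2*, which specifies neurons projecting to the spinal cord, had a difference of 0.32. Without WT 2, 3 and 5, *Tbr1* and *Fezf2* differed by 0.10 and 0.04.

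Upper-layer genes had a median difference of 0.09, with 8 of 15 higher. The median was 0.037 without WT 5, 0.013 without HET 2 and 0.016 without WT 2, 3 and 5. *Mef2c*, a transcription factor that regulates synapse number, had 10.44, 11.06 and 11.29 in WT and 11.02, 11.32 and 12.07 in HET (0.40), with 4 of 6 HET samples above all WT samples. *Cux1*, a homeobox factor of upper layers, differed by −0.17. Neither gene was called by limma, and without WT 2, 3 and 5 the difference of *Mef2c* was 0.25.

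Of 10 Cajal-Retzius cell genes, markers of the earliest neurons at the cortical surface, 7 had a lower mean in HET, with a median of −0.21 that was 0.09 without WT 2, 3 and 5. *Ebf2* and *Lhx5*, transcription factors of these cells, differed by −0.92 and −0.58, whereas *Trp73*, the p53 relative p73 that marks them, differed by 0.39. These 3 genes differed by −0.035, −0.051 and 0.21 without WT 2, 3 and 5. Of 26 interneuron and ganglionic eminence genes, 17 had a higher mean, and the median was 0.09, while an unadjusted *p* below 0.05 was reached by 4, all higher. Without WT 2, 3 and 5 the median of this list was 0.059, with 24 of 26 higher. *Dlx1*, *Dlx5* and *Dlx6*, homeobox genes of ventral progenitors and interneurons, differed by 0.23, 0.23 and 0.20, and by 0.05 to 0.22 without WT 2, 3 and 5.

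Genes of neuronal excitability and synapses had small differences, most of them negative. Of 14 tested voltage-gated sodium channel subunits, 10 had a lower mean in HET, with a median of −0.15. *Scn2b* was the one whose genotypes did not overlap, and *Scn4b*, another auxiliary subunit, differed by 0.39. *Asic1*, an acid-sensing sodium channel, differed by −0.29. *Scn4b* differed by 0.17 and *Asic1* by −0.045 without WT 2, 3 and 5. Of 35 synaptic vesicle and release genes, 32 had a lower mean, with a median of −0.11, and of 25 neuronal cytoskeleton genes 24 did, with a median of −0.07. Without WT 2, 3 and 5, the medians were 0.08 for sodium channel subunits, 0.07 for synaptic vesicle genes and 0.08 for cytoskeleton genes, all of them above 0.

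The vesicular glutamate transporters, which load glutamate into vesicles, had differences of both signs. *Slc17a7*, the form of cortical neurons, had 8.72, 9.47 and 9.86 in WT and 9.57, 9.71 and 10.03 in HET (0.37). *Slc17a8*, the form of some brainstem and serotonergic neurons, had 5.74, 6.57 and 7.54 in WT and 5.52, 5.67 and 6.25 in HET (−0.79). *Slc17a6*, which is prominent in the thalamus and brainstem, differed by −0.18. Leaving out WT 2, 3 and 5 gave 0.11 for *Slc17a7*, −0.12 for *Slc17a8* and −0.016 for *Slc17a6*. The neurofilament genes *Nefl* and *Nefm* differed by −0.51 and −0.47, and by 0.08 and 0.05 without WT 2, 3 and 5. *Kcnh3*, a potassium channel of the forebrain, differed by 0.34, and by 0.16 without those libraries.

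**Figure D5:**
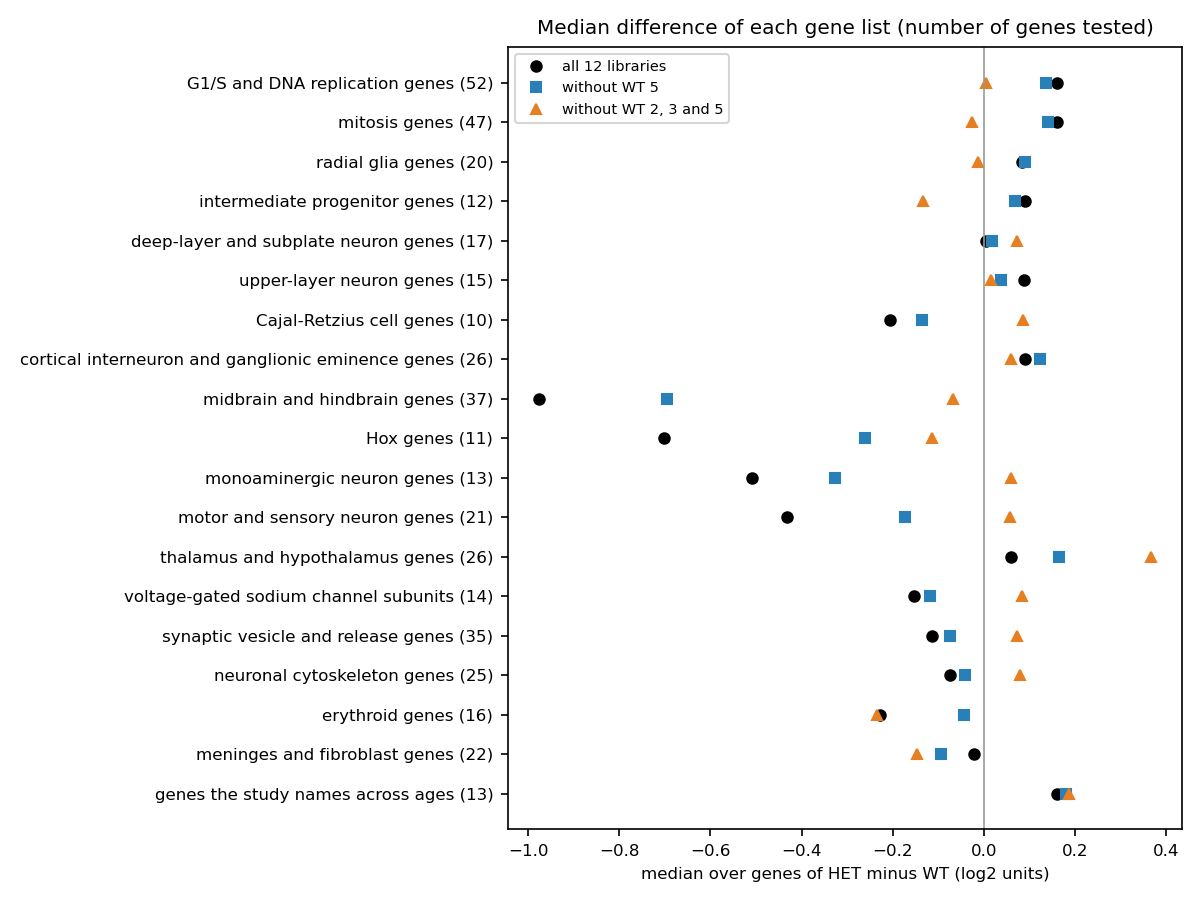
Median over genes of HET minus WT (x axis, log2 units) for 19 gene lists, with all 12 libraries (circles), without WT 5 (squares) and without WT 2, 3 and 5 (triangles). Number of genes tested is given in parentheses. Midbrain and hindbrain genes move from −0.98 to −0.07 and G1/S and replication genes from 0.16 to 0.005. WT 2, 3 and 5 are the highest libraries for the former and the lowest for the latter, so both had to shrink. The 13 genes the study named have medians between 0.16 and 0.19, but they were chosen on these samples for their genotype differences.

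Since CHD8 is known to restrain beta-catenin, Wnt genes were described by role. Of 31 tested Wnt ligands and secreted regulators, 16 had a higher and 15 a lower mean, and the median was 0.02, while an unadjusted *p* below 0.05 was reached by 3, all lower. They were *Dkk1*, a secreted inhibitor of Wnt co-receptors, with 4.19, 4.88 and 5.12 in WT and 3.87, 4.12 and 4.78 in HET (−0.59, standard error 0.192), *Wif1*, an inhibitor that binds Wnt proteins (−0.37), and the ligand *Wnt2* (−0.48). For *Dkk1* and *Wif1*, 4 of 6 HET samples lay below all WT samples. Without WT 2, 3 and 5 the differences were −0.42, −0.35 and −0.28. *Wnt2* lay near the floor, with 2.72, 3.18 and 3.36 in WT and 2.12, 2.73 and 2.98 in HET. Its HET mean of 2.61 was below the level of the filter, so it was tested because of its WT values and carries no weight.

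Of 18 Wnt receptors, 9 had a higher mean, and *Fzd10* had a difference of −0.47 that was −0.13 without WT 2, 3 and 5. Of 23 transducers of the beta-catenin pathway, 14 had a lower mean, with a median of −0.01, and *Lef1*, a transcription factor that acts with beta-catenin, differed by −0.34 and by −0.03 without those libraries. Of 17 Wnt target genes, 11 had a lower mean, with a median of −0.06. *Sp5*, a direct target, had 6.93, 7.75 and 8.08 in WT and 6.67, 7.0 and 7.83 in HET (−0.49, and −0.17 without WT 2, 3 and 5). None of these genes was called by limma.

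Of 31 tested p53 pathway and target genes, 19 had a higher mean, with a median of 0.02. *Rrm2b*, the p53-induced subunit of ribonucleotide reductase, had 8.79, 8.94 and 9.09 in WT and 9.06, 9.12 and 9.28 in HET (0.19, standard error 0.065), and its difference was 0.22 without WT 2, 3 and 5. Of 39 high-confidence autism risk genes, *Chd8* included, 25 had a lower mean, with a median of −0.02. Without WT 2, 3 and 5 the count turned to 31 of 39 higher, with a median of 0.05. Both libraries numbered 1 were lowest for this list, with means of 11.69 in WT and 11.51 in HET.

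Of 44 integrin, laminin and focal adhesion genes, 24 had a higher mean, with a median of 0.03. *Col9a2*, a collagen of cartilage and the vitreous, had 7.71, 8.37 and 8.61 in WT and 7.53, 7.86 and 8.08 in HET (−0.48). *Vav3*, a guanine nucleotide exchange factor, differed by −0.42 and *Lims1*, an adaptor of integrin signalling, by 0.17. Of 41 imprinted genes, 28 had a lower mean, with a median of −0.07. *Ndn*, or necdin, which promotes neuronal differentiation, differed by −0.29, and *Cdkn1c*, an inhibitor of cyclin-dependent kinases, by −0.23. Leaving out WT 2, 3 and 5 gave −0.24 for *Col9a2*, −0.09 for *Vav3*, 0.08 for *Lims1*, −0.15 for *Ndn* and −0.12 for *Cdkn1c*.

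The list means of non-neural cell types differed between genotypes by less than the spread between libraries. Of 24 microglia and macrophage genes, 9 had a higher mean, with a median of −0.03. *Siglech*, a marker of microglia, was the single one with an unadjusted *p* below 0.05, with 4.93, 5.21 and 5.71 in WT and 4.17, 4.74 and 5.16 in HET (−0.54, standard error 0.186). Meningeal and fibroblast genes had 17 of 22 lower with a median of −0.02, and without HET 2 the count turned to 20 of 22 higher with a median of 0.14, where 50.1% of all genes were higher. Without WT 2, 3 and 5, 18 of the 22 were lower, with a median of −0.147. Of 16 tested erythroid genes, which come from blood cells in the tissue, 14 had a lower mean, with a median of −0.23, and −0.04 without WT 5. Without WT 2, 3 and 5 the erythroid median was −0.235, again with 14 of 16 lower. In that fit 5 of the 16, all lower, had an unadjusted limma *p* below 0.05, beside 2.11% of all genes in either direction. Endothelial and mural cell genes had a median of 0.05, with 19 of 24 higher and none at an unadjusted *p* below 0.05. That median was 0.004 without WT 5, with 13 of 24 higher, and 0.11 without HET 2, where 7 higher genes had an unadjusted *p* below 0.05.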

How the data were processed

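PolyA RNA was sequenced from the dissected cortex of 12 E14.5 animals of a series of 48. The authors aligned reads to mm9 with STAR 2.5.2b, quantified transcripts with Salmon 0.11.3, processed counts with DESeq2 1.22.2 in a model that corrected for a batch they do not name, and deposited VST values on a log2 scale for 24444 genes. The library kit is TruSeq in the labels and KAPA in the paper. In the deposited values, the means of replicates 1 to 3 and of replicates 4 to 6 were equal to within 3.38e-14 for every gene, so a difference between these sets had been removed, which can also shift values near the floor. No count test was run, since the values are not counts, and the counting error of a gene in 1 library is not known. The total read depth that the study lists for each library served as a covariate in 1 alternative.

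Samples were grouped by their labels. HET and WT were compared with limma 3.58.1 in R 4.3.3 (two-sided, with an intensity trend, no covariate, the 12 samples alone) over genes with a mean at least 0.5 above the floor of 2.1433, which kept 16877 genes, and Benjamini-Hochberg adjusted *p* values were judged at 0.1. The fit was tested on simulated data. The contrast with the postnatal ages used 1 fit of all 48 samples. Alternatives were a replicate block, a fit of 48 samples, other filters, variance models, library weights and scalings, read depth, replicate set and a marker mean as covariates, and leaving out libraries. Leaving out WT 2, 3 and 5, or both libraries numbered 1, was chosen after seeing the data.

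Genes named are *Chd8*, called genes, the 10 genes in each direction with the smallest *p* among those whose genotypes do not overlap, up to 3 members of each gene list with the smallest *p*, and genes the study names across ages, with *Tbr1* and *Emx1* also given as tissue markers. Some genes are not reported here. The members and the gene lists were chosen with earlier results of these data known. Coordinates and the sequence are from mm9 (NCBIM37) with GENCODE M1, in which 20333 of the 24444 symbols had 1 entry. Transcript lengths were found for 89.2% of tested genes. Every sample column was mapped to a label. Tables and figures were made in Python 3.11.15 (pandas 2.3.3, numpy 2.4.6, matplotlib 3.10.9), and the exact test with scipy 1.17.1.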

Additional observations from a re-analysis of the deposited data

Results flagged for a closer look

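In 282 groups of 6 libraries (1 genotype for 1 gene or 1 list mean), the lowest or highest library was compared with the nearest other one, and 29 had a gap, relative to the group's range, above Dixon's 95% critical value. Chance alone gives about 1 in 20 groups, and the groups are not independent since they share libraries.

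Library 1 of each genotype held 15 of the 29 values. In HET 1, *Chd8* was 11.60 (others 11.90 to 12.03) and *Chd6* 11.51, and the list means were 11.30 for CHD remodelers, 11.35 for BAF and other SWI/SNF subunits, 11.05 for COMPASS methyltransferases, 11.51 for autism risk genes, 11.15 for transducers of the beta-catenin pathway, 10.03 for interneuron and ganglionic eminence genes and 10.61 for axon guidance genes, each the lowest of its group. In WT 1, *Chd6* was lowest at 11.75 and *Lyrm7* highest at 7.39, and the list means were lowest at 11.36 for SWI/SNF subunits, 11.69 for autism risk genes, 11.18 for transducers of the beta-catenin pathway and 10.71 for axon guidance genes. In both libraries genes with the longest 25% of transcripts lay below the gene means, with median deviations of −0.152 and −0.215.

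In WT 5, *Hoxb2* was 6.33, *Hoxb3* 8.41 and the *Hox* list mean 5.38, each the highest of WT. WT 6 had the highest mean of G1/S and replication genes (10.28) and the lowest *Ndn* (12.56). In HET 3, *Pax5* was 6.03, *Tph2* 4.88, *Etv1* 9.80 and the mean of sex-linked genes 9.61, each the highest of HET, and *Xist* was 8.65 there. In HET 2, *Fezf2* was highest at 11.27, and *Cdkn1c* (11.49) and the mean of meningeal and fibroblast genes (8.01) were lowest. *Dlx6* was highest at 8.38 in HET 4, and *Itfg2* was lowest at 8.61 in HET 5.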

How the results depend on the processing

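The number of genes called at E14.5, 1 with all 12 libraries, was 2 with the replicate block, a filter at 1.5 above the floor, quantile normalization, median centring or the replicate set as a covariate, 3 without a filter, 5 with array quality weights, and 0 without an intensity trend (782 at an unadjusted *p* below 0.05), with the marker mean as a covariate (420) and without WT 2, 3 and 5 (356). It ranged from 0 to 2 when 1 library was left out. A limma fit of all 48 samples called 120 genes, and 303 with a replicate block. *Chd8* kept its direction in every alternative. It lost its call without a trend (−0.63, limma adjp = 0.12), with the marker mean as a covariate (−0.59, adjp = 0.29) and without WT 2, 3 and 5 (−0.60, adjp = 1.0), where fewer libraries were fitted. The call was also lost when WT 2, WT 4, WT 5 or HET 4 alone was left out. The difference of *Chd8* ranged from −0.67 to −0.56 when 1 library was left out. The contrast with postnatal ages gave 20 genes with a replicate block and 303 with array quality weights, against 0, and the cause was not tested. Of the other named genes, *Tph2* (0.059), *Nefl* (0.078), *Nefm* (0.053) and *Emx1* (−0.038, and −0.004 with the marker mean) reversed without WT 2, 3 and 5.

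In the labels, same-numbered WT and HET libraries share only a number. Their deviations correlated by 0.58, 0.12, 0.22, 0.07, 0.01 and 0.39, 4 of 6 above 0.1, and 4 of 6 WT libraries correlated best with their own number. The mean correlation was 0.232 for same-numbered and −0.045 for differently numbered libraries, and the reason was not tested. The replicate block called *Chd8* (−0.63) and *Tmem209*, and an unadjusted *p* below 0.05 was reached by 1995 genes.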

Other observations

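Gene lists not described above had small differences, beside 50.4% of all tested genes with a higher mean in HET. Of 28 hypoxia and glycolysis genes, 21 had a lower mean in HET, with a median of −0.07, and without WT 2, 3 and 5 the median was −0.10. *Ankrd37*, a target of hypoxia-inducible factor, differed by −0.36, *Pfkl*, the liver form of phosphofructokinase, by −0.19, and *P4ha2*, a collagen prolyl hydroxylase whose genotypes did not overlap, by −0.19. Of 25 immediate early genes, 21 had a higher mean, with a median of 0.07, and *Fosl2*, a Fos family transcription factor, differed by 0.43, and by 0.13 without WT 2, 3 and 5. Without those libraries 11 of the 25 were higher.

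Of 16 NMDA, AMPA and kainate receptor subunits, 13 had a lower mean, with a median of −0.08, and 13 had a higher mean without WT 2, 3 and 5. Calcium channel subunits (18 of 24 lower, median −0.08), potassium channels (19 of 28 lower, median −0.09) and subunits of GABA-A and glycine receptors (12 of 18 lower, median −0.07) had the same pattern, with medians of 0.05, 0.06 and 0.12 without those libraries. Cytosolic ribosomal protein genes had 33 of 63 higher with a median of 0.003, and splicing factors 30 of 38 with a median of 0.03. Without WT 2, 3 and 5 these counts were 4 of 63 with a median of −0.08 and 19 of 38 with a median of −0.001. Among chromatin genes other than CHD remodelers, the medians were 0.03 for SWI/SNF subunits, 0.007 for Polycomb complex 2 and DNA methylation enzymes and 0.002 for COMPASS methyltransferases, with no member at an unadjusted *p* below 0.05.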
